A study of Mus musculus with 16 samples.

Results

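The 39 genes described here encode the glutathione, thioredoxin, peroxide-removing, NADPH-supplying and iron-storing proteins of mouse cells, with the transcription factor NRF2 (Nfe2l2) and its inhibitor KEAP1 that control many of them. They were taken by symbol from a list chosen with earlier results of these data known, out of 22196 genes with deposited values. All 39 passed the filter on low counts among the 12506 genes tested. Because of that choice, a share of members called beside that of all genes is a description and not a test. The 16 RNA-seq libraries come from the whole inguinal mammary gland of mice at mid-lactation, and their age label, postnatal day 16, does not say whose day is meant. The study's question was the effect of a high fat diet during lactation (HFD) and of metformin, a drug that lowers blood glucose, on gene expression in the gland. Its 4 groups of 4 libraries were HFD with metformin, HFD with control treatment, NCD with metformin and NCD with control treatment, where NCD is the other diet and is not spelled out in the labels. The labels give no strain, dose or route. They also do not say that the 4 libraries of each group are different mice, and a p-value here therefore measures the spread among these samples only, part of which may be technical.

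Totals over genes were between 8649316 and 39156617 counts per library, and HFD control 4 was the shallowest. Genes that define the lactating gland were present in every library: 8 markers of the secretory epithelium, beta-casein, whey proteins and luminal keratins among them, summed to between 213768 and 348577 CPM (counts scaled to a common library size with TMM factors). Skeletal muscle markers reached 3671 CPM in NCD control 3, against 139 CPM in the next highest library, HFD metformin 1. In whole tissue, fewer cells of a type and less RNA per cell cannot be told apart.

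Reactive oxygen is handled in layers. Superoxide dismutases turn superoxide into hydrogen peroxide, which catalase, glutathione peroxidases and peroxiredoxins remove. Glutathione and thioredoxin carry the electrons for this and are recycled with NADPH, which comes largely from the pentose phosphate pathway and from NADP-dependent dehydrogenases. NRF2, released from KEAP1 under oxidative or electrophilic stress, binds antioxidant response elements near many of these genes. The lactating gland also spends NADPH on the synthesis of milk fat.

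Levels can be compared between genes per coding length, as TPM (the authors' length-scaled transcript abundance, summed over the transcripts of a gene). The ferritin chains, which store iron, had the highest levels, with 835 TPM for Fth1 (range over 16 libraries 598 to 1082) and 750.0 TPM for Ftl1 (484 to 1150.4). Their ranges overlapped each other and lay above that of every other member. Next came the selenium-dependent peroxidases Gpx1 (173 TPM) and Gpx4 (157 TPM), of which Gpx4 reduces lipid peroxides, then the cytosolic superoxide dismutase Sod1 (121 TPM), and the peroxiredoxins Prdx4 of the endoplasmic reticulum (104 TPM) and Prdx1 of the cytosol (86.4 TPM). From Gpx1 to Prdx1, neighbours in this order had overlapping ranges. Among enzymes of the pentose phosphate pathway the order by level was Taldo1, transaldolase (80.2 TPM), Tkt, transketolase (49.7 TPM), Pgd, 6-phosphogluconate dehydrogenase (31.3 TPM), and G6pdx, which carries out the first step (22.5 TPM), with overlapping ranges of neighbours. Of the 31-base words in the coding sequence of G6pdx, 18.9% also occur in G6pd2, which had at most 0.0289 CPM. Transcripts of the regulators were scarcer, at 7.61 TPM for Nfe2l2 and 3.59 TPM for Keap1. The lowest were the extracellular superoxide dismutase Sod3 (1.19 TPM), and Gpx7 (0.457 TPM), which had 4 counts in its lowest library.

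**Figure D1:**
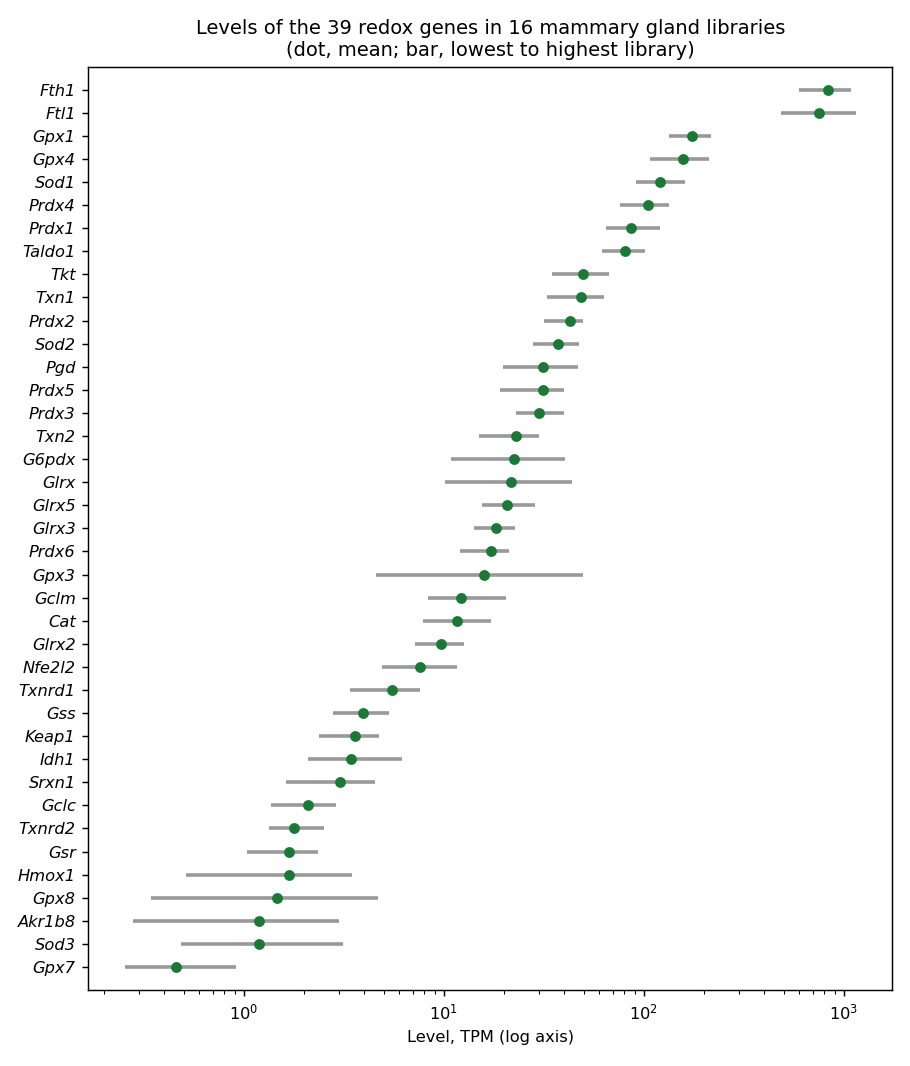
Level of each of the 39 genes in TPM on a log axis, with the mean of 16 libraries as a dot and the lowest to highest library as a bar. Both ferritin chains stand at the top, near 835 and 750.0 TPM, and Gpx7 at the bottom, with 0.457 TPM.

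The members differed in how steady they were. The SD of log2 CPM within groups was lowest for Gss, glutathione synthetase (0.0925), and Txn2, the mitochondrial thioredoxin (0.094), with a median of 0.18 over the 39 genes. It was highest for Gpx8 (0.868), Gpx3 (0.861) and Sod3 (0.766), so that a fold change of these 3 genes is far less precise.

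Because NRF2 acts through antioxidant response elements, the promoters of the members were searched for the core TGACNNNGC on either strand. RefSeq promoters on GRCm38.p6, each of 300 bases with 250 before the transcription start, were at hand for 34 of the 39 members, and 8 of these 34 held the core, against 14% of 27025 genes. The 8 were Nfe2l2, Gclm, Txnrd1, Srxn1, Prdx1, Sod1, G6pdx and Pgd. The core was in 1 of 3 promoters of Txnrd1 and in 1 of 2 promoters of Pgd. No promoter was at hand for Gclc, Gsr, Hmox1, Prdx6 and Sod3. Shown are the windows of the 3 that were called lower on HFD in a comparison given further on, read 5′ to 3′ on the strand of the gene, with the core or its reverse complement in capitals.
Gclm: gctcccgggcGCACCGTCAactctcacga
Pgd: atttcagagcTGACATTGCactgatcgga
Txnrd1: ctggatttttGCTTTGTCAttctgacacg
The windows lie at chr3:122245413-122245441 (plus strand), chr4:149166061-149166089 (minus strand) and chr10:82859104-82859132 (plus strand). A match of letters is a description and not a binding site. The members Tkt and Akr1b8, also called lower on HFD, had a promoter in the table and no match within it.

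Averaged over both diets, glands given metformin had more transcript of Txn2, Txnrd2, Prdx2, Prdx3, Gpx1, Gpx4, Glrx, Ftl1 and Taldo1, and less of Hmox1, haem oxygenase, and Gsr, glutathione reductase. The calls of Txnrd2, Prdx3, Taldo1 and Gsr were less firm than the others, as given further on. In that comparison 9 of the 39 members were called higher with metformin (adjusted p under 0.05 over all genes, edgeR's quasi-likelihood test), where 5.82% of all genes were. Another 2 members were called lower, where 5.57% of all genes were. The median log2 fold change of the members was 0.14, beside -0.01 over all genes tested, and 28 members were positive. The changes were small, and the largest called one, that of Glrx, had a log2 fold change of 0.83.

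In the thioredoxin system, the 2 mitochondrial members rose. Txn2 (ENSMUSG00000005354.16, chromosome 15 from 77915047 to 77929006 on the minus strand, GRCm38) had 12.4, 11.7, 12.3 and 13.7 CPM in NCD metformin, against 9.50, 9.37, 10.7 and 10.9 CPM in NCD control. On HFD it had 12.6, 11.5, 11.9 and 11.4 CPM with metformin, against 9.31, 8.08, 8.10 and 8.26 CPM in control. In neither diet did the metformin and control libraries overlap. The averaged log2 fold change was 0.40 ± 0.06 (SE, adjusted p = 0.00222, edgeR), and 8 of 8 metformin libraries lay above the control mean of their diet.

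Txnrd2, the mitochondrial thioredoxin reductase (ENSMUSG00000075704.16, chromosome 16 from 18426384 to 18479073 on the plus strand), had 8.31, 8.59, 8.01 and 8.14 CPM in NCD metformin, against 7.24, 5.01, 6.44 and 5.73 CPM in NCD control. In HFD metformin it had 6.23, 7.14, 7.78 and 6.47 CPM, against 6.87, 6.90, 5.92 and 4.91 CPM in HFD control, and here the groups overlapped. Its averaged log2 fold change was 0.30 ± 0.09 (SE, adjusted p = 0.0481, edgeR), with all 8 metformin libraries above their control mean. The cytosolic counterparts were not called in this comparison, with log2 fold changes of 0.10 ± 0.11 for Txn1 and 0.06 ± 0.08 for Txnrd1 (SE), and Srxn1, which restores overoxidised peroxiredoxins, had -0.27 ± 0.15.

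All 6 peroxiredoxins had positive averaged log2 fold changes, and 2 were called. Prdx2, abundant in the cytosol and in red cells (ENSMUSG00000005161.15, chromosome 8 from 84969587 to 84974834 on the plus strand), had 41.6, 44.6, 41.7 and 43.1 CPM in NCD metformin, against 32.2, 37.0, 36.4 and 34.3 CPM in NCD control. On HFD the values were 38.0, 44.3, 43.8 and 43.1 CPM with metformin, against 35.4, 37.6, 29.6 and 31.7 CPM in control. The groups did not overlap in either diet, and the averaged log2 fold change was 0.31 ± 0.06 (SE, adjusted p = 0.00888, edgeR). Prdx3, the mitochondrial peroxiredoxin that thioredoxin 2 reduces (ENSMUSG00000024997.7, chromosome 19 from 60864051 to 60874556 on the minus strand), had 44.5, 45.7, 45.5 and 54.8 CPM in NCD metformin, against 32.4, 34.5, 38.8 and 38.8 CPM in NCD control. Its HFD groups overlapped, with 36.1, 40.3, 49.2 and 39.7 CPM with metformin, against 42.7, 37.3, 37.8 and 34.3 CPM in control. Averaged over diets, the log2 fold change of Prdx3 was 0.26 ± 0.08 (SE, adjusted p = 0.0445, edgeR, higher in 7 of 8 libraries). Prdx1, Prdx4, Prdx5 and Prdx6 had 0.18, 0.12, 0.21 and 0.20 on the same scale and were not called.

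Among the glutathione peroxidases, the 2 abundant selenoproteins rose. Gpx1 (ENSMUSG00000063856.7, chromosome 9 from 108338903 to 108340343 on the plus strand) had 175, 195, 179.6 and 181 CPM in NCD metformin, against 117, 135, 138 and 135 CPM in NCD control. With HFD it had 179, 175, 221 and 192 CPM in metformin libraries, against 156, 153, 138 and 115 CPM in control libraries. Every metformin library lay above every control library of its diet, and the averaged log2 fold change was 0.46 ± 0.08 (SE, adjusted p = 0.00245, edgeR). Gpx4 (ENSMUSG00000075706.10, chromosome 10 from 80047166 to 80056439 on the plus strand) had 140.2, 175, 143 and 193 CPM in NCD metformin, against 146, 135, 148 and 121 CPM in NCD control, groups that overlapped. In HFD metformin it had 162, 177, 161 and 133 CPM, against 105, 132, 109 and 101 CPM in HFD control, without overlap. Its averaged log2 fold change was 0.37 ± 0.09 (SE, adjusted p = 0.0179, edgeR, higher in 8 of 8 libraries).

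Glrx, the cytosolic glutaredoxin that removes glutathione from protein thiols (ENSMUSG00000021591.8, chromosome 13 from 75839868 to 75850154 on the plus strand), had the steepest rise of the list averaged over diets with all libraries. It had 5.91, 9.996, 4.92 and 10.3 CPM in NCD metformin, against 3.72, 4.00, 3.11 and 2.95 CPM in NCD control, without overlap. On HFD it had 4.31, 4.60, 7.78 and 6.11 CPM with metformin, against 4.59, 2.66, 4.33 and 4.80 CPM in control, with overlap. Averaged, its log2 fold change was 0.83 ± 0.18 (SE, adjusted p = 0.0102, edgeR, higher in 8 of 8 libraries). Without NCD control 3 it was 0.81, below the 1.13 of Gpx3. For Glrx, metformin libraries varied more than controls on NCD, with 7.78 ± 2.77 CPM, against 3.45 ± 0.496 CPM (SD, n = 4). The glutaredoxins Glrx2, Glrx3 and Glrx5, of which Glrx5 takes part in iron-sulphur cluster assembly, had 0.10, 0.14 and 0.27 and were not called by edgeR. Glrx5 was called by DESeq2 (adjusted p = 0.0326), by edgeR with the title number term (0.0347) or counts rebuilt from TPM (0.0287), and without HFD control 1 (0.038), HFD control 2 (0.044) or NCD metformin 4 (0.0411).

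The haem and iron genes moved in different directions. Ftl1, the ferritin light chain (ENSMUSG00000050708.16, chromosome 7 from 45457944 to 45459884 on the minus strand), had 388, 499, 452 and 332 CPM in NCD metformin, against 369.9, 299.6, 287 and 249 CPM in NCD control, with overlap between the groups. It had 311, 407, 339.5 and 310.2 CPM in HFD metformin, against 221, 246, 224 and 203 CPM in HFD control, without overlap. Over both diets the log2 fold change was 0.54 ± 0.10 (SE, adjusted p = 0.00472, edgeR, higher in 8 of 8 libraries). Of the 31-base words in its coding sequence, 82.8% also occur in Ftl1-ps1, which was itself listed at no more than 0.282 CPM, so how reads were split between this pair is uncertain. Hmox1, which breaks down haem and is a classical NRF2 target (ENSMUSG00000005413.8, chromosome 8 from 75093621 to 75100589 on the plus strand), was scarce, with 3.09, 3.01, 3.34 and 2.09 CPM in NCD metformin, against 5.57, 3.90, 4.54 and 2.98 CPM in NCD control. On HFD it had 1.92, 2.03, 1.21 and 2.25 CPM with metformin, against 3.97, 4.02, 2.31 and 2.46 CPM in control, where no library overlapped. Its averaged log2 fold change was -0.68 ± 0.18 (SE, adjusted p = 0.0244, edgeR, lower in 8 of 8 libraries). The ferritin heavy chain Fth1 had 0.28 ± 0.09 (SE) and was not called by edgeR (adjusted p = 0.0589), though DESeq2 called it (adjusted p = 0.0223), as did edgeR with the title number term (0.0294), with counts rebuilt from TPM (0.0441), or without HFD metformin 3 (0.0474) or NCD metformin 4 (0.0399).

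Taldo1, transaldolase of the pentose phosphate pathway (ENSMUSG00000025503.5, chromosome 7 from 141392199 to 141402968 on the plus strand), had 193, 231, 207 and 225 CPM in NCD metformin, against 167, 167, 177 and 184 CPM in NCD control, without overlap. On HFD it had 171, 209, 220.5 and 166 CPM with metformin, against 167, 177, 149 and 131 CPM in control, with overlap. It was called higher with metformin averaged over diets (0.30 ± 0.08 SE on the log2 scale, adjusted p = 0.0304, edgeR, higher in 8 of 8 libraries). Gsr, which regenerates reduced glutathione with NADPH (ENSMUSG00000031584.16, chromosome 8 from 33652523 to 33698163 on the plus strand), had 6.37, 5.45, 7.13 and 6.36 CPM in NCD metformin, against 7.65, 6.86, 7.36 and 7.997 CPM in NCD control. In HFD metformin it had 4.85, 6.08, 5.19 and 4.91 CPM, against 6.52, 6.33, 6.01 and 8.04 CPM in HFD control. The groups of Gsr overlapped in both diets, and it was called lower (-0.29 ± 0.08 SE on the log2 scale, adjusted p = 0.0396, edgeR, lower in 8 of 8 libraries).

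**Figure D2:**
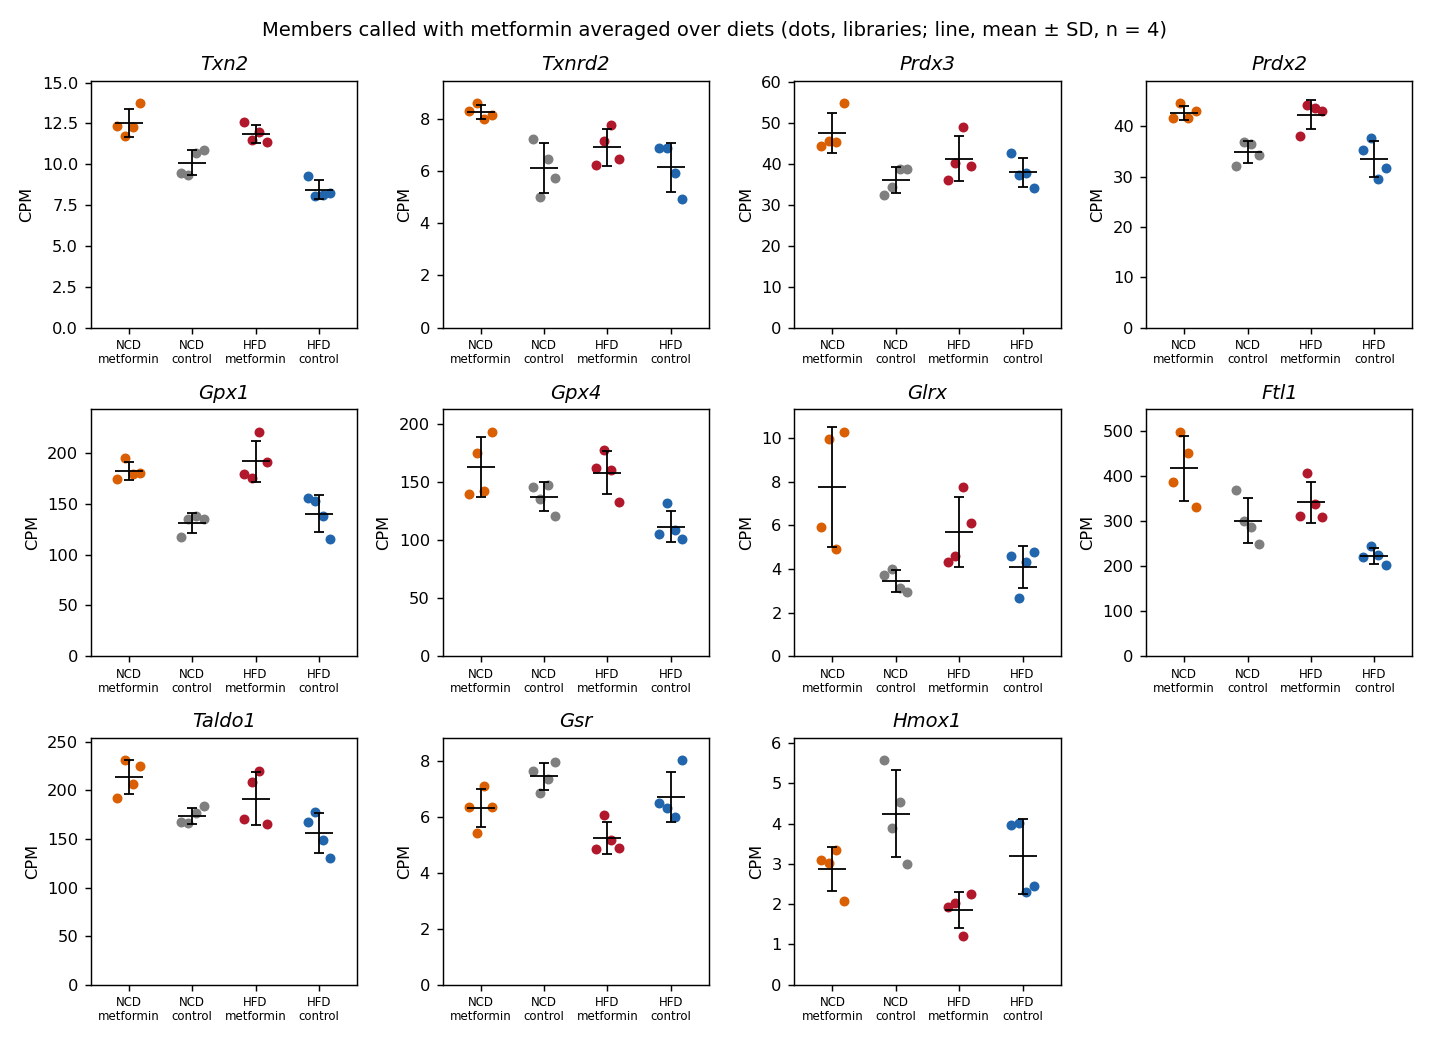
CPM in every library (dots) with the group mean ± SD (n = 4) for the 11 members called with metformin averaged over diets, on axes that start at 0. The 4 groups run from NCD metformin and NCD control to HFD metformin and HFD control. Txn2, Prdx2 and Gpx1 separate metformin from control in both diets, and Gsr and Hmox1 are the 2 members called lower.

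The calls of Txn2, Gpx1, Ftl1, Prdx2 and Glrx held in all 23 alternatives tried for this comparison, Hmox1 lost its call without NCD control 1 (adjusted p = 0.0507), and Gpx4 lost its call with library size only or with the length and GC trend removed (adjusted p = 0.0513 and 0.0523, edgeR). The other 4 were less firm, with calls in 5 of 23 alternatives for Prdx3, 7 for Txnrd2, 13 for Gsr and 14 for Taldo1. Prdx3 kept its call without HFD control 1 or HFD metformin 1 and lost it without any other single library, and Txnrd2 kept it without NCD control 1, HFD control 1, HFD control 2 or HFD metformin 1 and lost it without any other. Taldo1 lost its call without NCD control 1, NCD control 2, NCD metformin 2, NCD metformin 4, HFD control 3, HFD control 4, HFD metformin 2 or HFD metformin 3. Gsr lost its call without NCD control 1, 3 or 4, NCD metformin 1 or 2, HFD metformin 1, 3 or 4, or HFD control 4. Adjusted p over the alternatives reached 0.123 for Prdx3, 0.125 for Txnrd2, 0.0728 for Taldo1 and 0.0778 for Gsr (edgeR and DESeq2). With library size only, 5 members were called higher and 3 lower, beside 9 and 2 with TMM scaling. Over all genes, library size only called 357 higher and 897 lower, beside 728 and 696 with TMM scaling.

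Within NCD alone, 6 members were called higher with metformin, where 4.01% of all genes were, and 1 lower, where 6.03% were. This comparison uses 8 of the 16 libraries of the averaged one, so it is not independent of it. Those higher were Glrx (1.18 ± 0.25 SE on the log2 scale, adjusted p = 0.0153), Gpx1 (0.48 ± 0.11, 0.0180), Ftl1 (0.47 ± 0.14, 0.0445), Txnrd2 (0.44 ± 0.13, 0.0426), Prdx3 (0.40 ± 0.11, 0.0355) and Txn2 (0.31 ± 0.09, 0.0374), all by edgeR. They include the mitochondrial thioredoxin, its reductase and its peroxiredoxin, each of which lost its call without any single NCD metformin library. Sod2, the mitochondrial superoxide dismutase, was not called (0.14 ± 0.11 SE, adjusted p = 0.401, edgeR). The member called lower was Gclm, the modifier subunit of glutamate-cysteine ligase, which makes the first step of glutathione synthesis. Gclm (ENSMUSG00000028124.15, chromosome 3 from 122245557 to 122270732 on the plus strand) had 15.6, 17.3, 15.4 and 14.6 CPM in NCD metformin, against 21.1, 18.9, 17.97 and 21.7 CPM in NCD control, with no overlap (-0.34 ± 0.09 SE on the log2 scale, adjusted p = 0.0309, edgeR). The catalytic subunit Gclc had -0.33 ± 0.12 (SE, adjusted p = 0.0839, edgeR) and Nfe2l2 -0.46 ± 0.15 (adjusted p = 0.0657), neither of them called.

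No member of the 7 was called without NCD metformin 2. The number called was 3 without NCD control 1, NCD control 2 or NCD metformin 4, 4 without NCD control 4, 2 without NCD metformin 1 or NCD metformin 3, and 5 without HFD control 3. Without NCD control 3 it was 5, of which 3 were among the 7, and Gpx3 and Gpx8 were new. Without HFD control 1, HFD control 2, HFD metformin 2 or HFD metformin 3 it was 6. With library size only, 2 members were called higher and 1 lower, beside 248 and 742 of all genes. With the length and GC trend removed, the numbers were again 2 and 1, with Prdx3 in place of Gpx1, beside 632 and 419 of all genes. Of the skeletal muscle markers, which were high in NCD control 3, 11 of 12 were called lower in the same comparison.

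Within HFD alone, Txn2 was the single member called, higher with metformin (0.49 ± 0.09 SE on the log2 scale, adjusted p = 0.0394, edgeR), where 0.128% of all genes were called higher and 0.04% lower. The call held in 6 of 24 alternatives, with adjusted p up to 0.181. Without any 1 library it was kept only for NCD metformin 2, NCD metformin 4, HFD control 1 and HFD metformin 4. Next by p-value were Ftl1 (0.61 ± 0.14, adjusted p = 0.0900) and Gpx1 (0.45 ± 0.11, adjusted p = 0.109), which passed with DESeq2 and not with edgeR. Members with a negative value on HFD numbered 13 of 39, and the median was 0.16, beside 0.00358 over all genes.

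The response of the members to metformin could not be shown to differ between the diets. The test of that difference called 0 of 39 members with edgeR and 0 with DESeq2, where edgeR called 0.0% of all genes and DESeq2 23 genes. At an unadjusted p under 0.05 there were 2 members, beside 9.94% of all genes. The lowest p-values were those of Gclm, with a difference on the log2 scale of 0.40 ± 0.13 (SE, adjusted p = 0.369, edgeR), Txnrd1, -0.41 ± 0.17 (adjusted p = 0.439), and Fth1, 0.36 ± 0.18 (adjusted p = 0.535). Without NCD control 3 the count was also 0, with 3 at an unadjusted p under 0.05. For Glrx the difference was -0.69 ± 0.36 (adjusted p = 0.544), so a smaller rise on HFD was not detectable with 4 libraries a group.

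**Figure D3:**
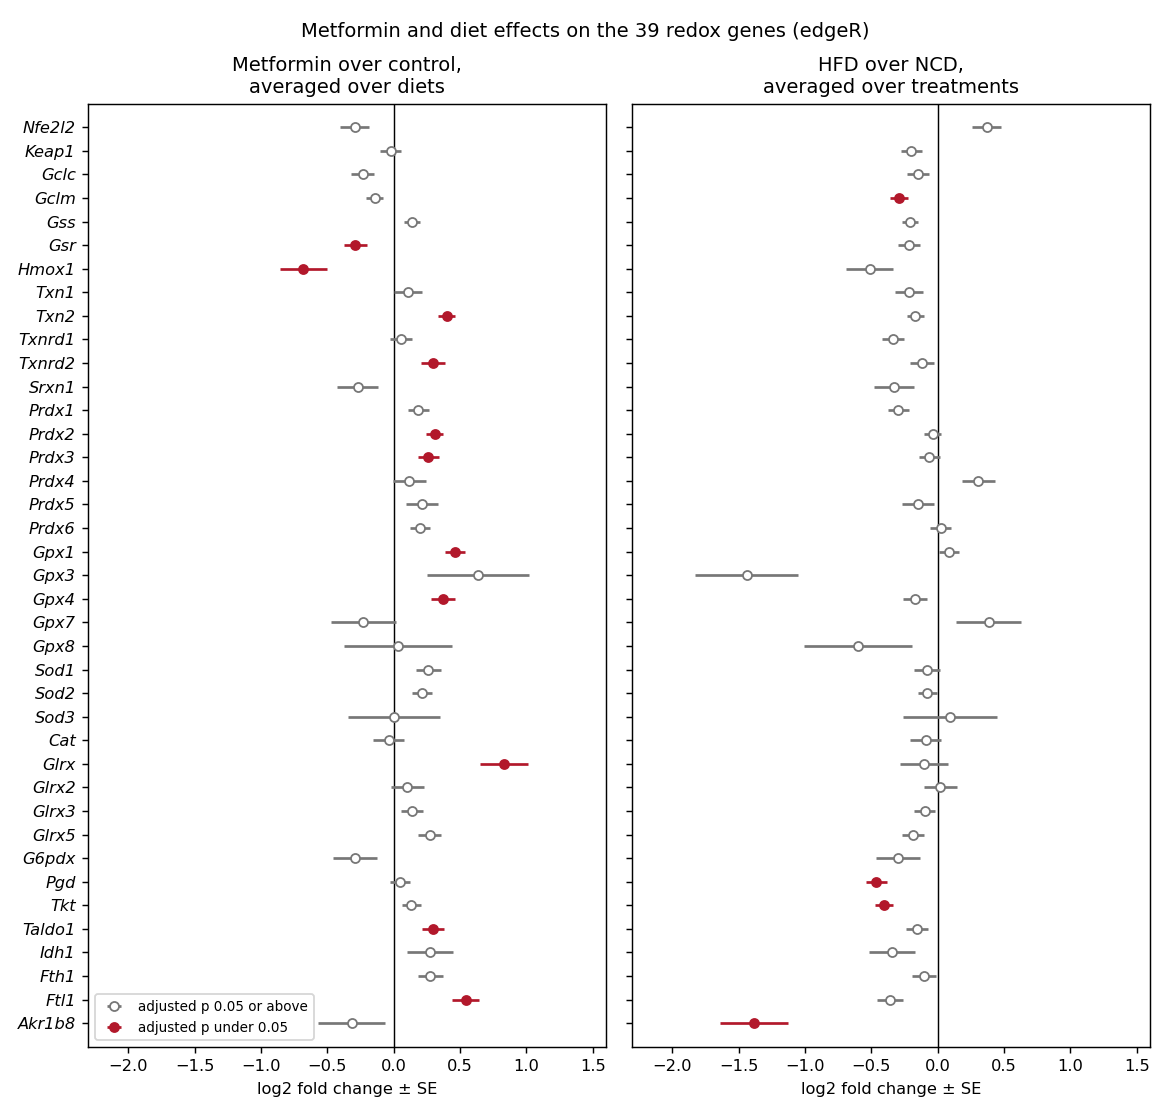
Log2 fold change ± SE of each of the 39 members, for metformin over control averaged over diets (left) and for HFD over NCD averaged over treatments (right). Filled red dots have an adjusted p under 0.05 (edgeR), 11 on the left and 4 on the right. Most members lie right of 0 for metformin and left of 0 for diet.

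On the high fat diet, transcripts of the pentose phosphate enzymes Pgd and Tkt, of the glutathione synthesis gene Gclm and of Akr1b8 were lower. Averaged over treatments, 4 of 39 members were called lower on HFD (edgeR), where 0.416% of all genes were, and 0 were called higher, where 0.52% of all genes were, or 0.936% in either direction. Of the 39 members 32 had a negative log2 fold change, with a median of -0.17, beside -0.000453 over all genes tested. This count was 36 with library size only, where 9616 of all 12506 genes were negative. It was 31 with the length and GC trend removed, where 6173 of 12482 genes were. Scaling by library size only moved the median of all genes to -0.17 and that of the members to -0.34. It called 21 members lower, beside 1546 of all genes. The secretory epithelium markers moved with diet too, without any of the 8 being called. They summed to 260360 to 348577 CPM in HFD metformin, against 237665 to 248566 CPM in NCD metformin, without overlap, and to 242363 to 298604 CPM in HFD control, against 213768 to 244125 CPM in NCD control, with overlap. Their part in the lower values of the members was not tested.

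Pgd, which makes NADPH in the pentose phosphate pathway (ENSMUSG00000028961.15, chromosome 4 from 149149991 to 149166771 on the minus strand), had 109.7, 98.6, 84.7 and 91.7 CPM in HFD control, against 126, 117, 123 and 133 CPM in NCD control. Under metformin it had 92.7, 86.8, 92.2 and 103 CPM on HFD, against 137, 120.3, 163 and 127 CPM on NCD. No HFD library reached the lowest NCD library of its treatment. The averaged log2 fold change was -0.46 ± 0.08 (SE, adjusted p = 0.0121, edgeR, lower in 8 of 8 libraries).

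Tkt, which links the pentose phosphate pathway to glycolysis (ENSMUSG00000021957.7, chromosome 14 from 30548359 to 30574720 on the plus strand), had 213, 241, 208 and 177 CPM in HFD control, against 268, 306, 310.5 and 267 CPM in NCD control. With metformin the values were 243, 234, 232 and 243 CPM on HFD, against 279, 326, 307 and 307 CPM on NCD. The diets did not overlap in either treatment, and the averaged log2 fold change was -0.41 ± 0.07 (SE, adjusted p = 0.0134, edgeR, lower in 8 of 8 libraries). The other members of the pentose phosphate pathway, G6pdx (-0.30 ± 0.17) and Taldo1 (-0.16 ± 0.08), were also negative (log2 scale, SE). So was Idh1, the cytosolic NADP-dependent isocitrate dehydrogenase (-0.34 ± 0.17). None of these was called by edgeR with TMM scaling. All 5 of these genes, Pgd and Tkt included, were negative under every scaling tried.

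Gclm had 14.1, 15.0, 13.3 and 14.5 CPM in HFD control, against 21.1, 18.9, 17.97 and 21.7 CPM in NCD control, with no overlap. Under metformin its groups overlapped, with 16.5, 14.2, 14.7 and 13.8 CPM on HFD, against 15.6, 17.3, 15.4 and 14.6 CPM on NCD. The averaged log2 fold change was -0.29 ± 0.07 (SE, adjusted p = 0.0454, edgeR, lower in 7 of 8 libraries). The 3 remaining genes of glutathione synthesis and recycling were negative and were not called by edgeR with TMM scaling, with -0.15 for Gclc, -0.21 for Gss, which DESeq2 called (adjusted p = 0.0499), and -0.21 for Gsr.

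Akr1b8, an aldo-keto reductase that reduces reactive aldehydes (ENSMUSG00000029762.6, chromosome 6 from 34354119 to 34368463 on the plus strand), had the largest fold change among the members called for diet. It had 1.502, 1.35, 1.01 and 1.12 CPM in HFD control, against 5.22, 3.71, 3.52 and 3.82 CPM in NCD control, with no overlap. In HFD metformin it had 0.923, 0.900, 0.716 and 2.36 CPM, against 3.51, 1.14, 3.16 and 2.79 CPM in NCD metformin. HFD metformin 4 was high and NCD metformin 2 low, so these groups overlapped. The averaged log2 fold change was -1.39 ± 0.26 (SE, adjusted p = 0.0206, edgeR, lower in 8 of 8 libraries). Of its 31-base coding words 10.7% occur in Akr1b10 or Akr1b7, and Akr1b10 was listed at 5.25 to 13.1 CPM, so its reads are in part uncertain.

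Pgd and Tkt kept their calls in all 23 alternatives, and Akr1b8 lost its call without HFD control 3 (adjusted p = 0.0575) or NCD metformin 3 (adjusted p = 0.0531, edgeR). Gclm was called in 7 of 23 alternatives. It was called without NCD control 3, NCD metformin 4 or HFD metformin 1 and not without any other single library, with adjusted p up to 0.114, and 2 members in all were called without HFD control 3 or NCD metformin 3.

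**Figure D4:**
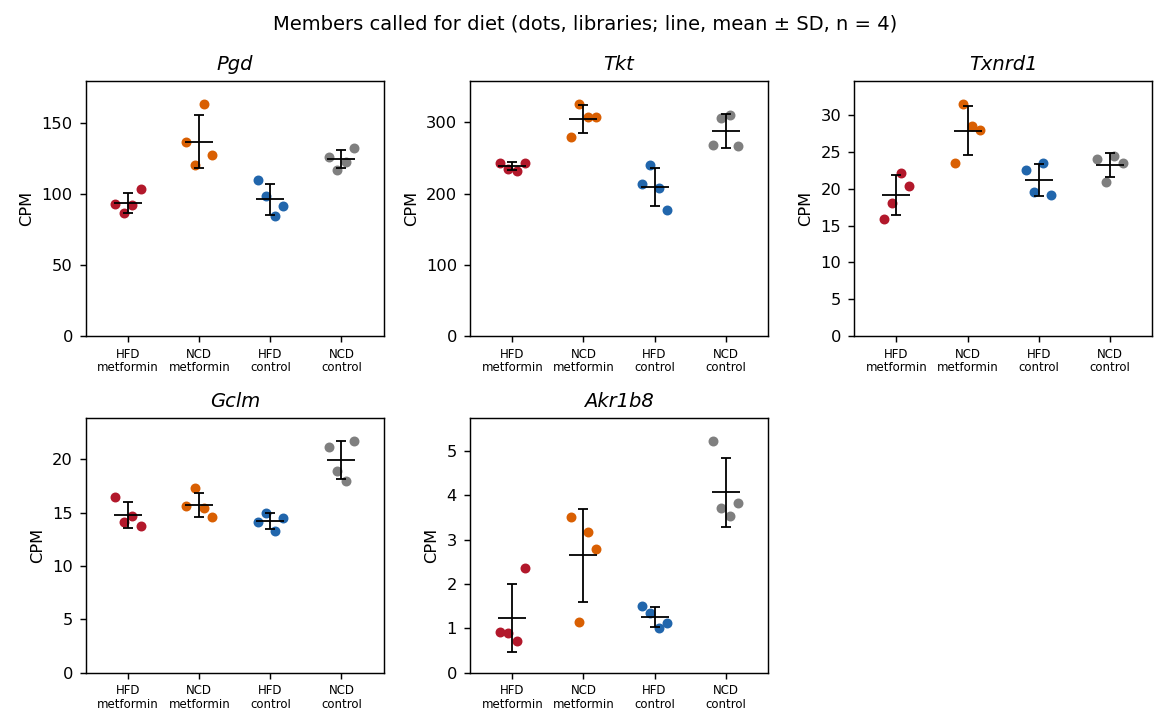
CPM in every library (dots) with the group mean ± SD (n = 4) for the 5 members called lower on HFD in a comparison, on axes that start at 0. Each HFD group stands left of the NCD group of the same treatment. The diets separate for Pgd and Tkt in both treatments, for Txnrd1 with metformin, and for Gclm and Akr1b8 without it.

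Under metformin alone, 2 members were called lower on HFD, where 0.504% of all genes were, and 0 higher, where 1.86% were. Pgd had -0.55 ± 0.11 (SE on the log2 scale, adjusted p = 0.0322, edgeR). Txnrd1, the cytosolic thioredoxin reductase and a selenoprotein (ENSMUSG00000020250.10, chromosome 10 from 82833951 to 82897712 on the plus strand), had 15.8, 18.1, 22.1 and 20.4 CPM in HFD metformin, against 23.5, 31.5, 28.6 and 28.1 CPM in NCD metformin, with no overlap. Its log2 fold change was -0.54 ± 0.12 (SE, adjusted p = 0.0360, edgeR, lower in 4 of 4 libraries). Without metformin Txnrd1 had 22.6, 19.6, 23.5 and 19.2 CPM in HFD control, against 24.1, 20.9, 24.5 and 23.6 CPM in NCD control, and the groups overlapped (-0.13 ± 0.12 SE, adjusted p = 0.932, edgeR). Both calls were lost without NCD metformin 2 (adjusted p = 0.0649 for Pgd and 0.114 for Txnrd1), NCD metformin 3 (0.0927 and 0.107), HFD metformin 1 (0.0928 and 0.105) or HFD metformin 2 (0.0625 and 0.0716), and that of Txnrd1 without HFD metformin 4 (0.0524, edgeR). The count was 3 without HFD metformin 3, where Nfe2l2 also passed as higher, or HFD control 4, where Tkt passed as lower. With only the 2 groups compared it was 0, and with DESeq2 or with library size only it was 6. For DESeq2 the number called over all genes is not given here. Library size only called 65 of all genes higher and 576 lower, beside 232 and 63 with TMM scaling.

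Without metformin, edgeR called 0 of 39 members for diet, where 0.064% of all genes were called in either direction, 0.016% higher and 0.048% lower. There were 10 members at an unadjusted p under 0.05, beside 7.04% of all genes (edgeR). DESeq2 called 4 members, namely Akr1b8, Gclm, Pgd and Tkt. The share of all genes that DESeq2 called in this comparison is not given here, and edgeR's share does not stand for it. The lowest p-values by edgeR were those of Gclm (-0.49 ± 0.09 SE on the log2 scale, adjusted p = 0.0782), Tkt (-0.46 ± 0.10, 0.121) and Akr1b8 (-1.69 ± 0.36, 0.121). Akr1b8 passed without HFD metformin 4 (adjusted p = 0.0315, edgeR), and the count stayed at 0 without NCD control 3, where Tkt had -0.43 (adjusted p = 0.285, edgeR). This comparison shares the NCD control libraries with the metformin comparison on NCD, so their values are not independent: Gclm had -0.49 for diet and -0.34 for metformin against the same 4 libraries, and Akr1b8 -1.69 and -0.62.

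The transcript of NRF2, Nfe2l2, had no change called by edgeR with all libraries in any of the 7 contrasts. The NRF2 protein and its activity were not measured. Nfe2l2 averaged 38.0 ± 5.97 CPM in HFD metformin and 41.7 ± 7.001 CPM in HFD control (SD, n = 4 each). On NCD it averaged 26.3 ± 2.57 CPM with metformin and 36.0 ± 6.99 CPM in control (SD, n = 4 each). Its log2 fold change was 0.37 ± 0.11 for diet (SE, adjusted p = 0.100) and -0.29 ± 0.11 for metformin (adjusted p = 0.0842, edgeR), with a sign opposite to that of Pgd, Tkt and Gclm for diet. DESeq2 called Nfe2l2 in 3 contrasts, lower with metformin on NCD (-0.46, adjusted p = 0.0319), and higher on HFD with metformin (0.52, adjusted p = 0.022) and on HFD averaged over treatments (0.36, adjusted p = 0.0396). Keap1 had -0.20 ± 0.08 for diet and -0.02 ± 0.08 for metformin. With all libraries, counts as deposited, TMM scaling and no covariate, edgeR called neither the dismutases Sod1, Sod2 of the mitochondria and Sod3 nor catalase, encoded by Cat, in any of the 7 contrasts. Their averaged metformin log2 fold changes were 0.26, 0.21, 0.00 and -0.04. With library size only, edgeR called Sod2 lower on HFD averaged over treatments (-0.25, adjusted p = 0.023), where it called 1546 of all genes lower. DESeq2 called Sod1 (adjusted p = 0.0492) and Sod2 (adjusted p = 0.0419) higher with metformin averaged over diets, and edgeR called Sod1 with the title number term (adjusted p = 0.0435) or with counts rebuilt from TPM (adjusted p = 0.0475).

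Beyond the 39 members, 80 further genes of the same pathways were listed, of which 75 symbols with 76 gene identifiers were tested. That list, too, was chosen with earlier results of these data known, so its shares called are a description and not a test. With metformin averaged over diets, 7 of the 76 were called higher and 6 lower by edgeR, beside 5.82% and 5.57% of all genes. Without NCD control 3 these counts were 5 and 5. Ptgr1, an NADPH-dependent reductase of prostaglandins and reactive alkenals, had the lowest p-value. It averaged 21.2 ± 3.63 CPM in NCD metformin and 8.69 ± 1.11 CPM in NCD control (SD, n = 4 each). On HFD the means were 17.6 ± 4.51 CPM with metformin and 6.88 ± 1.02 CPM in control (SD, n = 4 each), and the averaged log2 fold change was 1.31 ± 0.12 (SE, adjusted p = 4.07e-05, edgeR). Idh2, the mitochondrial NADP-dependent isocitrate dehydrogenase, averaged 29.0 ± 2.70 CPM in NCD metformin and 17.5 ± 1.95 CPM in NCD control (SD, n = 4 each). On HFD it averaged 26.1 ± 5.75 CPM with metformin and 15.1 ± 1.35 CPM in control (SD, n = 4 each), with an averaged log2 fold change of 0.76 ± 0.10 (SE, adjusted p = 0.000510, edgeR). Bach1, a repressor at antioxidant response elements, was lower, with -0.64 ± 0.12 on the log2 scale (SE, adjusted p = 0.00492, edgeR), and so was Ephx1, microsomal epoxide hydrolase, with -0.81 ± 0.15 (adjusted p = 0.00518). Without NCD control 3 all 4 kept their calls, with 1.27, 0.80, -0.67 and -0.88 for Ptgr1, Idh2, Bach1 and Ephx1. On NCD alone 3 of the 76 were called higher and 7 lower, shares near the 4.01% and 6.03% of all genes, and without NCD control 3 these counts were 3 and 3. On HFD alone 2 were called higher, Ptgr1 and Idh2, and 0 lower, where 0.128% and 0.04% of all genes were.

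For diet averaged over treatments, 1 of the 76 was called higher and 2 lower, where 0.52% and 0.416% of all genes were. Me1, the malic enzyme that supplies cytosolic NADPH for fat synthesis, averaged 438 ± 31.6 CPM in HFD metformin and 596 ± 52.2 CPM in NCD metformin (SD, n = 4 each). In control libraries it averaged 471 ± 51.9 CPM on HFD and 552 ± 50.4 CPM on NCD, and the log2 fold change averaged over treatments was -0.34 ± 0.07 (SE, adjusted p = 0.0411, edgeR). Without NCD control 3 the call of Me1 was lost (-0.33, adjusted p = 0.059, edgeR). Mgst1, a microsomal glutathione transferase, had -0.43 ± 0.08 (adjusted p = 0.0261), and Foxo3, a transcription factor of stress and nutrient signalling, had 0.75 ± 0.16 (adjusted p = 0.0414, edgeR). Foxo3 was lowest in NCD metformin, with 9.15 ± 2.17 CPM, against 22.8 ± 3.09 CPM in NCD control (SD, n = 4 each). It averaged 21.7 ± 6.81 CPM in HFD metformin and 27.5 ± 7.72 CPM in HFD control. Its diet call held under metformin (1.24 ± 0.23 SE, adjusted p = 0.0322, edgeR) and not without it. Foxo3 was also called lower with metformin averaged over diets (-0.83 ± 0.16, adjusted p = 0.00674, edgeR). Without metformin edgeR called 0 of the 76, with 10 at an unadjusted p under 0.05. Under metformin 3 of the 76 were called higher on HFD, Foxo3, Sesn3 and Ephx1, and 2 lower, Me1 and Mthfd1. Over all genes these shares were 1.86% and 0.504%. Without NCD control 3 the counts were 3 and 1. The test of a difference in metformin response between the diets called 0 of the 76 (edgeR).

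Markers of other cells were measured beside these results, and none of these lists was at 0 in the gland. The 8 adipocyte markers, with 0 called in any contrast, summed to 264 to 764 CPM in NCD metformin and 82.9 to 946 CPM in NCD control, where the highest was NCD control 3. On HFD they summed to 115 to 526 CPM with metformin and 111 to 310.0 CPM in control. The 8 macrophage markers, cells in which haem oxygenase is abundant, had 0 called, and summed to 69.1 to 91.6 CPM in NCD metformin and 80.7 to 100.1 CPM in NCD control. They summed to 70.0 to 94.4 CPM in HFD metformin and 78.9 to 96.3 CPM in HFD control. Erythroid markers, with 0 of 5 tested called, summed to 159.6 to 398 CPM in NCD metformin and 111 to 646 CPM in NCD control, and to 136 to 444 CPM in HFD metformin and 207 to 1149.95 CPM in HFD control. Fibroblast markers had 2 of 6 called lower with metformin averaged over diets and 1 of 6 lower with metformin on NCD, with sums of 212 to 334 CPM in NCD metformin and 328 to 343 CPM in NCD control. On HFD they summed to 256 to 307 CPM with metformin and 264 to 485 CPM in control. Of 6 endothelial markers, 1 was called higher with metformin on NCD, with a median log2 fold change of 0.45, and 1 was called lower on HFD with metformin, with a median of -0.40. They summed to 54.8 to 71.5 CPM in HFD metformin, 62.4 to 72.5 CPM in HFD control, 62.1 to 105 CPM in NCD metformin and 51.6 to 69.5 CPM in NCD control. For metformin averaged over diets, median log2 fold changes were 0.47 (adipocyte), -0.27 (macrophage), -0.47 (erythroid), -0.35 (fibroblast) and 0.18 (endothelial markers). For diet averaged over treatments they were -0.54, 0.00055, 0.19, 0.09 and -0.06 in the same order. The part of these marker lists in the results above was not tested.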

How the data were processed

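Per the labels' protocols, RNA of the whole gland was extracted with an RNeasy Mini kit, and strand-specific libraries were built with NEBNext Ultra II Directional reagents. The authors deposited, for each of 16 libraries, estimated counts and TPM per transcript. The build GRCm38.p6 and the tools DESeq2 1.28.1 and Salmon 1.3.0 are named, without roles, in the submitters' processing notes, and settings are not given in the sources at hand. Lengths in the files match coding lengths (within 5 bases for 56929 of 56929 transcripts compared), so values refer to coding sequence. Estimated counts as deposited were summed over 57452 of 58204 transcripts to 22196 genes with GENCODE M21 names and rounded to whole numbers, and TPM as deposited was summed likewise. The 752 unmatched transcripts held 0.165 to 0.218% of counts. No 2 libraries agreed within sampling noise (lowest chi-square per degree of freedom 13.38 over 120 pairs). A count of 0 allows up to 3 counts, or 0.0766 to 0.347 CPM, for counting error only.

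After edgeR's filter on low counts, 12506 genes were fitted over all 4 groups with TMM scaling and edgeR 4.0.16's quasi-likelihood test in R 4.3.3, without covariates, after a check on simulated data. P-values of each of 7 contrasts were adjusted over all 12506 genes (Benjamini-Hochberg, threshold 0.05). Members named with values were those called in a contrast, or the 3 with the lowest p where fewer than 3 were called. Other pathway genes named were called or among the 4 lowest p in a contrast, and not all such genes are named. The members and all lists were chosen with earlier results of these data known. Alternatives were RLE factors, library size only, no filter, a term for the gap in title numbers, counts rebuilt from TPM, only the groups compared, DESeq2 1.42.0, each library left out, and, chosen after seeing the data, removal of a trend with coding length and GC content. Promoter sequences are RefSeq's, on GRCm38.p6.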

Additional observations from a re-analysis of the deposited data

Results flagged for a closer look

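Within groups of 4, each of the 17 members named by the rule was looked at for 1 library far from the other 3, which chance finds in about 1 in 20 groups, and 3 of 68 groups had one. Prdx3 had 54.85 CPM in NCD metformin 4, against 44.49 to 45.67 CPM in the rest of its group. Txn2 had 9.306 CPM in HFD control 1, against 8.077 to 8.261 CPM in the other libraries of that group. Akr1b8 had 2.362 CPM in HFD metformin 4, against 0.7158 to 0.923 CPM in the other HFD metformin libraries.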

How the results depend on the processing

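No paired analysis was possible because replicates carry no number in the labels that pairs libraries across groups. None of the 34 member and contrast pairs chosen by the rule changed direction under an alternative. Of members named beside them for metformin averaged, Sod3 changed sign in 13 alternatives, Cat in 4, Keap1 in 2, and Txn1 and Txnrd1 in 1 each. Of 7 members called for metformin on NCD, 3 were called with library size only, without the filter, with the length and GC trend removed or with only the groups compared, and 0 to 7 with a library left out. For metformin on HFD the count of 1 became 0 with RLE factors, library size only, no filter, the title number term, the GC trend removed or 2 groups, and 6 with DESeq2 (0 to 1 with a library left out). For diet without metformin the count of 0 became 2 with library size only, 1 with 2 groups and 4 with DESeq2 (0 to 1). For diet with metformin the count of 2 became 6 with library size only or DESeq2 and 0 with 2 groups (0 to 3). For metformin averaged, 11 members became 15 with DESeq2, 14 with counts rebuilt from TPM, 12 with the title number term, 10 with the GC trend removed, 9 with RLE factors, 8 with library size only or no filter, and 7 to 12 with a library left out. For diet averaged, 4 became 21 with library size only and 10 with DESeq2 (2 to 5). A count of members depends on how many of all genes a setting calls, which is not given here for DESeq2. Over all genes, library size only called 49 higher and 1546 lower for diet averaged, against 65 and 52 with TMM scaling, and moved the median gene by -0.17 on the log2 scale. It called 248 higher and 742 lower for metformin on NCD, and removing the GC trend 632 and 419. The cause was not tested. HFD control 4, with 8649316 counts, limits the precision of scarce members such as Gpx7.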

Other observations

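Gpx3, the secreted glutathione peroxidase, Gpx8 of the endoplasmic reticulum and Sod3 were the members with the widest spread within groups. Gpx3 had 20.7, 29.7, 47.2 and 30.9 CPM in NCD metformin, against 7.07, 6.70, 52.8 and 18.02 CPM in NCD control. NCD control 3, the library with the high muscle markers, was the highest of all 16 for Gpx3, Gpx8 and Sod3. With all libraries the log2 fold change of Gpx3 for metformin on NCD was 0.60 ± 0.53 (SE, adjusted p = 0.486, edgeR) and that of Gpx8 0.40 ± 0.55 (adjusted p = 0.679). Without NCD control 3 these were 1.59 (adjusted p = 0.0365) and 1.66 (adjusted p = 0.0269, edgeR). Gpx3 was then also called with metformin averaged over diets, at 1.13 (adjusted p = 0.0228, edgeR). Adipocyte markers were also highest in NCD control 3, at 946 CPM, and their part was not tested.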
